A study of Mus musculus with 3 samples.

Results

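The Slc25 family of mitochondrial carriers was followed through mammary tumour progression in the mouse. Its members were taken as every gene whose symbol in the platform's probe-to-gene table starts with Slc25a and a digit, a rule that uses no measured value. This gave 38 genes, on 53 probes, of 15056 named genes, and all 38 were measured on 3 arrays. The study transplanted single hyperplasias, premalignant lesions of the mammary gland, from pubertal donors of the cross MMTV-PyMT x B-actin-GFP into hosts of the same strain, and compared outgrowths taken as late carcinomas at 18 weeks with outgrowths taken as adenomas at 5 weeks. Lesions of both stages therefore carried the same transgenes: the polyoma middle T oncogene under the MMTV promoter, which is active mainly in mammary epithelium, and a green fluorescent protein gene. The hosts were syngeneic, and blood vessels, fat and immune cells of the host can contribute RNA to an outgrowth. The sources used here give no strain name, host age or number of animals behind an array. Total RNA of a late carcinoma (Cy3) and of an adenoma (Cy5) was hybridised together on each of 3 two-channel arrays.

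Slc25 proteins sit mainly in the inner mitochondrial membrane and exchange metabolites between cytosol and matrix. They deliver ADP and phosphate for ATP synthesis and send ATP out, and they export citrate, the carbon source of cytosolic fatty acid synthesis. Other members move amino acids, acylcarnitine for fat oxidation, iron, glutathione and the nucleotides and cofactors that matrix enzymes need. In the mammary gland, secretory cells use exported citrate in making milk fat.

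The deposited value of a probe is a log ratio, read here as log2 of adenoma (Cy5) over late carcinoma (Cy3). Neither the log base nor the numerator is stated, so this reading is likely but not certain, and every direction below would turn with the numerator. Every fold below rests on base 2. A value below 0 is thus likely higher in the late carcinomas, and a value above 0 likely higher in the adenomas. All arrays had the same dye orientation, so a dye effect and a stage effect cannot be told apart, and ratios carry no level, so the tissue could not be checked against marker levels in either stage. Separate animals are not stated for the arrays. A p-value here thus sets a mean against array-to-array spread alone, part or all of which may be technical. That spread combines the gene's own with a typical one over all genes and unnamed probes. A small printed SD therefore does not by itself give a small p. In bulk RNA, fewer cells of a type and less RNA per cell cannot be told apart. A gene passed the threshold at a Benjamini-Hochberg adjusted p under 0.05 by limma's moderated test over all 31058 genes and unnamed probes.

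With probes averaged per gene and 0 as deposited, the calls in the family split evenly. Of 38 carrier genes, 6 passed below 0, on the late carcinoma side (15.8%), against 9.19% of all named genes, and 6 passed above 0, on the adenoma side (15.8%), against 16.0% of all named genes. In either direction 31.6% of the carriers passed, against 25.2% of named genes. The share above 0 was thus at the background, and the share below 0 exceeded it by few genes. The glutamate carrier gene Slc25a22, the citrate carrier gene Slc25a1 and the ATP-Mg/phosphate carrier gene Slc25a25 had the lowest means among the genes that passed, and the oxodicarboxylate carrier gene Slc25a21 had the highest. With the values read as log2, differences ran from 1.35-fold to 1.72-fold on the late carcinoma side and from 1.29-fold to 1.68-fold on the adenoma side among the genes that passed. None of the 38 reached a mean of 2-fold, a size reached by 2.51% of named genes. All 12 calls needed array 3: without it no carrier passed, and 0.00322% of all genes and probes did, while 4 carriers below 0 and 4 above 0 had an unadjusted p under 0.05. The 12 means kept their sign without array 3. Slc25a1 then had -0.84 in place of -0.73, Slc25a22 -0.80 in place of -0.78, Slc25a35 0.67 in place of 0.59 and Slc25a21 0.56 in place of 0.75.

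**Figure D1:**
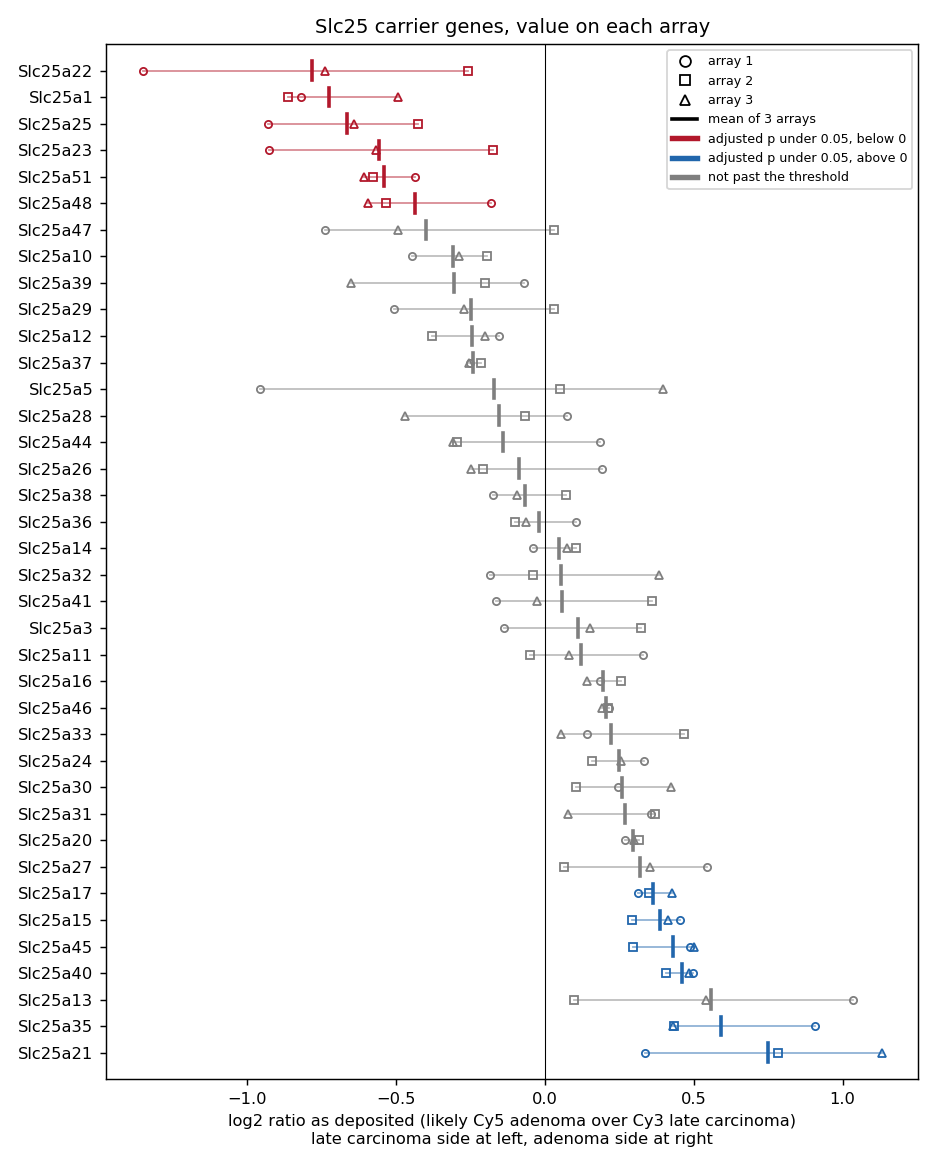
Log2 ratio of each of the 38 Slc25 genes (rows) on array 1 (circle), array 2 (square) and array 3 (triangle), with the mean as a vertical bar; the horizontal line joins the lowest and highest array. The 6 red genes passed below 0 (late carcinoma side) and the 6 blue genes above 0 (adenoma side), while Slc25a5 has the widest spread of all, from -0.96 to 0.40.

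The median of the 38 mean log2 ratios was 0.050, with quartiles of -0.25 and 0.27, beside a median of -0.027 over all named genes, with quartiles of -0.23 and 0.24. The spread of the family was therefore much like that of named genes in general. The sign was the same on 3 arrays for 25 carriers (10 negative and 15 positive), or 65.8%, against 63.2% of named genes. Across the 38 genes, Pearson's r was 0.57 between arrays 1 and 2, 0.68 between arrays 1 and 3 and 0.79 between arrays 2 and 3. These r values are descriptions over genes that share the same hybridisations. They stand beside 0.65, 0.76 and 0.75 over all named genes. Array 1 gave the value farthest from 0 for 17 carriers, array 3 for 12 and array 2 for 9.

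**Figure D2:**
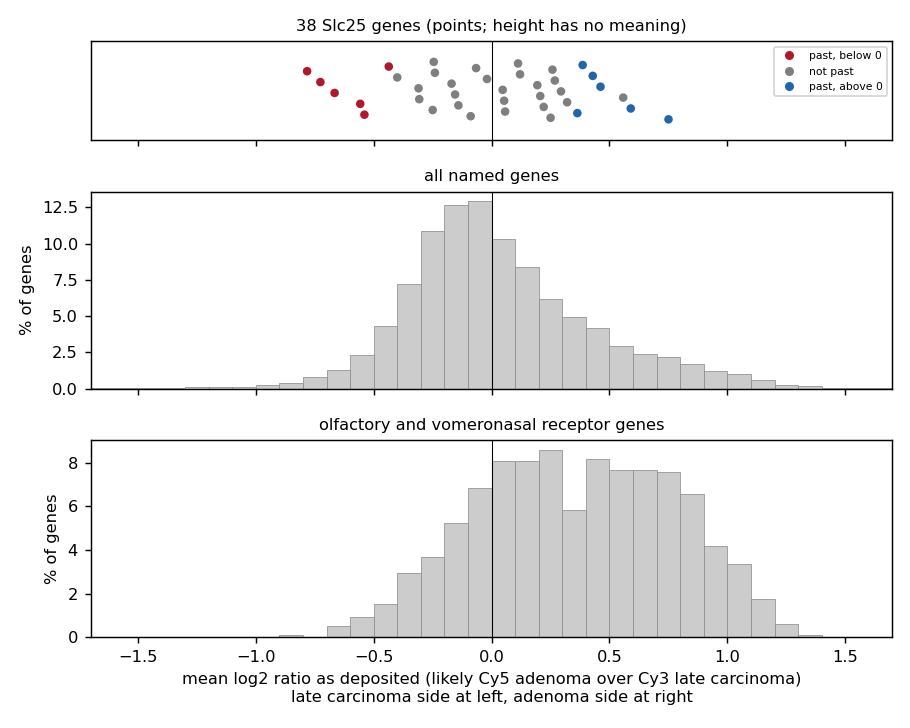
Mean log2 ratio over 3 arrays (x axis) of the 38 Slc25 genes as points, and the percent of genes per bin for all named genes and for 978 olfactory and vomeronasal receptor genes; means beyond the drawn axis are left out. The carriers lie between -0.78 and 0.75, inside the range of the receptor genes, which runs from -0.88 to 1.33. Most named genes also lie inside that range.

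Where 0 lies decides which carriers are called. Olfactory and vomeronasal receptor genes act in the nose and have no known role in the mammary gland. Their median was 0.34 on these arrays. Of these 978 genes, 426 passed above 0 and 26 below 0, beside 16.0% and 9.19% of named genes. The means of all 38 carriers lay within the receptor genes' range, which also holds most named genes. Centred on the receptor genes, 18 carriers passed below 0 (47.4%), against 55.6% of named genes. Above 0 none passed in that setting, against 7.15% of named genes, and 1 had an unadjusted p under 0.05. The 6 genes below 0 without that centring were all among the 18. The 6 genes above 0 lost their calls with it.

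Carboxylate carriers passed on both sides of 0. Slc25a1, which exports citrate from the matrix, had log2 ratios of -0.82, -0.86 and -0.49 on arrays 1, 2 and 3, a mean of -0.73 ± 0.20 (SD, n = 3, adjusted p = 0.0123). All its arrays lay on the late carcinoma side, and the call held without array 1 (adjusted p = 0.0152) or array 2 (adjusted p = 0.0145). Slc25a21 carries oxodicarboxylates, intermediates of lysine and tryptophan breakdown, and had 0.34, 0.78 and 1.13, a mean of 0.75 ± 0.40 (adjusted p = 0.0208). Every array lay on the adenoma side, array 3 the farthest. The dicarboxylate carrier gene Slc25a10 had a mean of -0.31 ± 0.13 (adjusted p = 0.0774), and the oxoglutarate/malate carrier gene Slc25a11, part of the malate-aspartate shuttle, had 0.12 ± 0.19. Neither passed, so of 4 genes in this group 1 passed below 0 and 1 above 0.

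Of 7 genes for adenine nucleotides and phosphate, 2 passed below 0 and none above 0. Both belong to the calcium-regulated carriers that exchange ATP-Mg for phosphate and so set the size of the matrix nucleotide pool. Slc25a25 had -0.93, -0.43 and -0.64, a mean of -0.67 ± 0.25 (adjusted p = 0.0160), and Slc25a23 had -0.93, -0.18 and -0.57, a mean of -0.56 ± 0.38 (adjusted p = 0.0428). All these values lay on the late carcinoma side, with array 2 nearest to 0 for both genes. Slc25a23 lost its call without array 1 (adjusted p = 0.0891) and with median centring (adjusted p = 0.0511). Slc25a24, which has the same activity, had a mean of 0.25 ± 0.088 (adjusted p = 0.120). Slc25a41, an ATP-Mg/phosphate carrier without the calcium-binding domain, had 0.057 ± 0.27.

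The carriers that serve ATP synthesis directly did not pass. Slc25a5, the ADP/ATP carrier of growing cells, had -0.96, 0.052 and 0.40, a mean of -0.17 ± 0.70, and its arrays pointed both ways. Slc25a3, the phosphate carrier, had a mean of 0.11 ± 0.23. The testis form Slc25a31 had 0.27 ± 0.16 (adjusted p = 0.124). Slc25a4, the ADP/ATP carrier of heart and muscle, was not analysed here.

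Amino acid carriers held 1 of 7 genes past the threshold below 0 and 1 above 0. Slc25a22, which imports glutamate with a proton, had the lowest mean of the family, with -1.35, -0.26 and -0.74 on the 3 arrays and a mean of -0.78 ± 0.55 (adjusted p = 0.0336). Its sign was the same throughout but its size varied more than that of the other genes that passed. Slc25a15, which exchanges ornithine for citrulline in the urea cycle, had 0.45, 0.29 and 0.41, a mean of 0.39 ± 0.084 (adjusted p = 0.0376). That call was lost without array 1 (adjusted p = 0.0738) or array 2 (adjusted p = 0.0638). The aspartate/glutamate carriers, the other arm of the malate-aspartate shuttle, were Slc25a13 with 1.03, 0.099 and 0.54 (mean 0.56 ± 0.47, adjusted p = 0.0626) and Slc25a12 with a mean of -0.25 ± 0.12 (adjusted p = 0.134). Slc25a13 passed without array 2, the array nearest to 0 (mean 0.79, adjusted p = 0.00833). The basic amino acid carrier Slc25a29 (-0.25 ± 0.27), the branched-chain amino acid carrier Slc25a44 (-0.14 ± 0.28) and the glycine carrier Slc25a38 (-0.066 ± 0.13) did not pass.

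Among 7 carriers of nucleotides and cofactors, 1 passed below 0 and 1 above 0. Slc25a51, which imports NAD into the matrix, had -0.44, -0.58 and -0.61, a mean of -0.54 ± 0.092 (adjusted p = 0.0161). Its arrays agreed closely, and the call held without array 1 (adjusted p = 0.0159) or array 2 (adjusted p = 0.0337). Slc25a17, which carries cofactors into peroxisomes and not mitochondria, had 0.31, 0.35 and 0.43, a mean of 0.36 ± 0.059 (adjusted p = 0.0425), and lost its call without array 1 (adjusted p = 0.0540) or array 2 (adjusted p = 0.109). The pyrimidine nucleotide carriers Slc25a33 (0.22 ± 0.22) and Slc25a36 (-0.020 ± 0.11), the coenzyme A related carrier Slc25a16 (0.19 ± 0.059), the folate/FAD carrier Slc25a32 (0.053 ± 0.29) and the S-adenosylmethionine carrier Slc25a26 (-0.089 ± 0.24) did not pass.

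The iron and glutathione group held 1 of 4 above 0 and none below 0. Slc25a40, a close relative of the glutathione carrier Slc25a39, averaged 0.50, 0.41 and 0.48 over its 3 probes, a mean of 0.46 ± 0.049 (adjusted p = 0.0217). The small SD of that average hides probes that differed, as given further on. Slc25a39 had -0.069, -0.20 and -0.65, a mean of -0.31 ± 0.30 (adjusted p = 0.148). The mitoferrins, which bring iron in for haem and iron-sulphur clusters, had means of -0.24 ± 0.022 for Slc25a37 (adjusted p = 0.121) and -0.15 ± 0.28 for Slc25a28. Slc25a20, which carries acylcarnitine for fat oxidation, had 0.27, 0.32 and 0.30, a mean of 0.29 ± 0.024 that missed the threshold (adjusted p = 0.0727). None of the uncoupling-protein-like carriers passed: Slc25a27 had 0.32 ± 0.24, Slc25a30 0.26 ± 0.16 and Slc25a14 0.047 ± 0.077.

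Members without a settled substrate in the roles used here held 1 of 5 below 0 and 2 above 0. Slc25a48 had -0.18, -0.53 and -0.59, a mean of -0.44 ± 0.22 (adjusted p = 0.0433), lost without array 2 (adjusted p = 0.121). Slc25a35 had 0.91, 0.43 and 0.43, a mean of 0.59 ± 0.27 (adjusted p = 0.0234), with array 1 the highest. Slc25a45 had 0.49, 0.30 and 0.50, a mean of 0.43 ± 0.11 (adjusted p = 0.0301), and its adjusted p was 0.0557 without array 1. Slc25a47, known from liver, had -0.40 ± 0.39 (adjusted p = 0.112), and Slc25a46, a protein of the outer membrane that acts in mitochondrial division, had 0.21 ± 0.013 (adjusted p = 0.170).

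Several members were read by more than 1 probe, and these probes often differed. Of 13 such carriers, 6 had probe means on both sides of 0 (46.2%), against 52.9% of the 5138 named genes with several probes. The probe means of Slc25a40 were 1.02, 0.43 and -0.066, so its call rested on 2 of 3 probes. Those of Slc25a24 were 0.73 (adjusted p = 0.00989, each probe fitted alone) and -0.23, those of Slc25a11 were 0.53 (adjusted p = 0.0181) and -0.29, and those of Slc25a32 were -0.48 (adjusted p = 0.0248), 0.21 and 0.43. In these 4 genes the sign of the mean thus depended on the probe, but in none of them did probes pass on both sides of 0. Both probes of Slc25a35 passed above 0, with means of 0.72 and 0.46. With each probe fitted alone, 8 of the 53 carrier probes passed below 0 (15.1%), against 10.8% of named probes, and 15 passed above 0 (28.3%), against 16.2%. The other 10 of the 12 carriers past the threshold had a single probe each, with no second probe to set beside it.

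**Figure D3:**
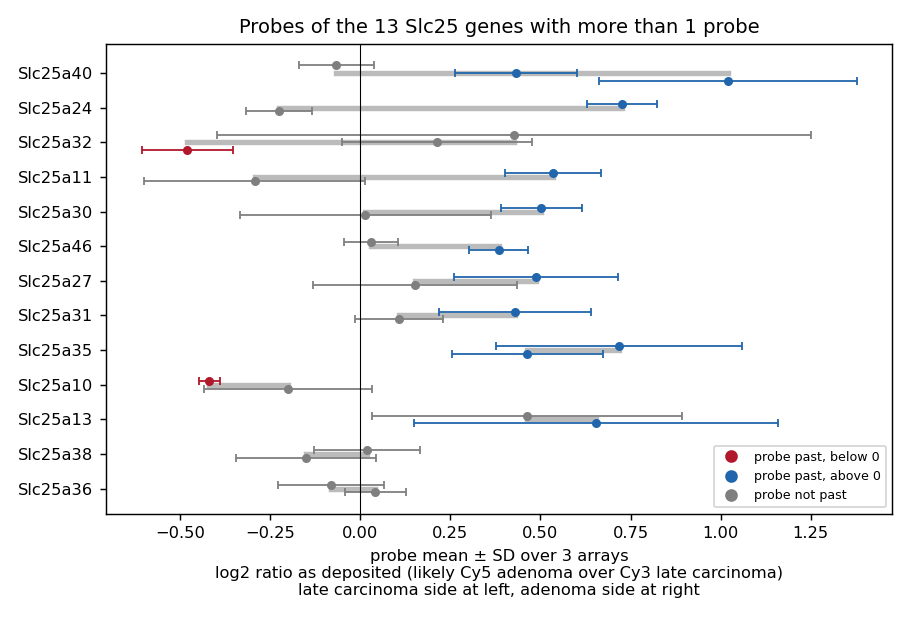
Mean log2 ratio ± SD over 3 arrays of every probe (points with bars) of the 13 Slc25 genes with more than 1 probe, each probe fitted alone; the grey band joins the lowest and highest probe of a gene. Probes of Slc25a40, Slc25a24, Slc25a32 and Slc25a11 lie on both sides of 0 and are the farthest apart.

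Carriers that share a role often had different ratios. The differences that follow are between log2 ratios of a pair within each array, and they show unequal change only. Slc25a23 minus Slc25a24 was -1.26, -0.34 and -0.83 (mean -0.81 ± 0.46), and Slc25a24 minus Slc25a25 was 1.26, 0.59 and 0.90 (mean 0.92 ± 0.34). Slc25a24 therefore lay nearer the adenoma side than both relatives on every array, although its probes disagreed. Slc25a23 minus Slc25a25 was 0.11 ± 0.13, positive on 3 arrays. Slc25a12 minus Slc25a13 was -1.19, -0.48 and -0.75 (mean -0.80 ± 0.36), with 3 of 3 arrays below 0. Slc25a39 minus Slc25a40 was -0.57, -0.61 and -1.13 (mean -0.77 ± 0.32), again with 3 of 3 below 0. Smaller differences were seen for Slc25a33 minus Slc25a36 (0.24 ± 0.28, positive on 3 arrays), Slc25a28 minus Slc25a37 (0.086 ± 0.28) and Slc25a14 minus Slc25a30 (-0.21 ± 0.19), the last pair of comparisons with arrays on both sides of 0. No test was run on these 8 differences.

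**Figure D4:**
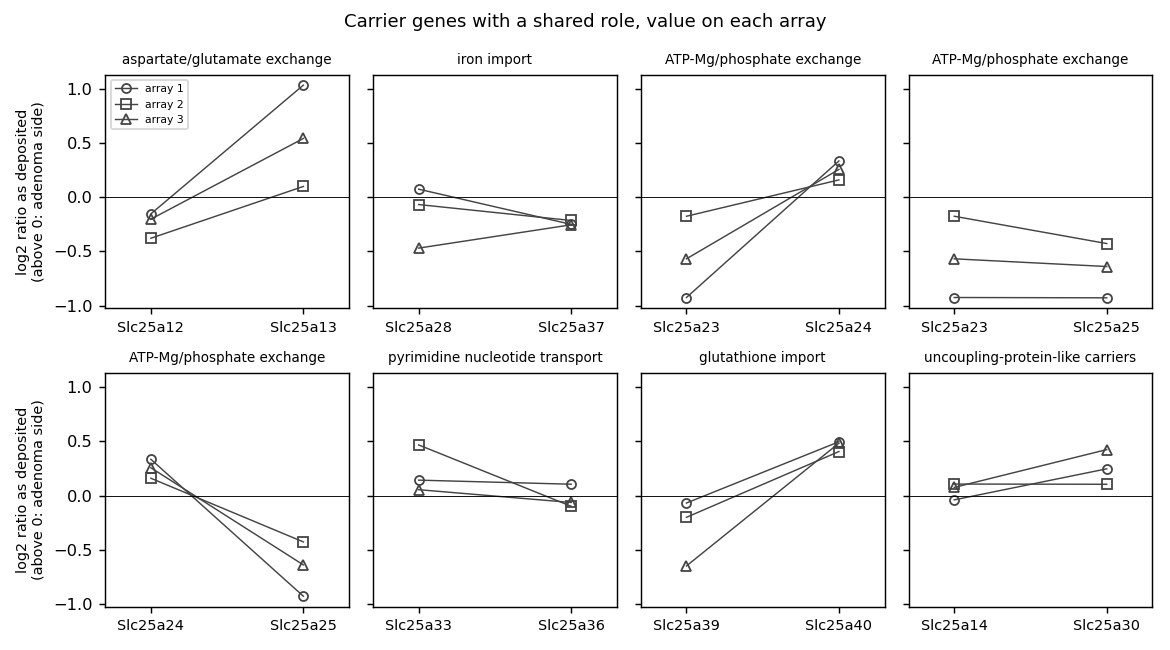
Log2 ratio on each array (y axis, above 0 for the adenoma side) of carrier genes with a shared role; a line joins the genes of a pair on 1 array. Lines slope the same way on 3 arrays for Slc25a12 with Slc25a13, Slc25a39 with Slc25a40, and Slc25a24 with Slc25a23 or Slc25a25. They also do, with smaller mean differences, for Slc25a23 with Slc25a25 and Slc25a33 with Slc25a36.

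The upstream sequence of the members with the smallest p on each side is shown to give the letters next to these genes. RefSeq's table of promoters (GRCm38.p6) held 29 of the 38 carriers in 38 windows, of which the 250 bases before the start were read. From each direction the 2 genes with the smallest unadjusted p and a window in the table are printed, 5′ to 3′ on the gene's strand, using the window listed first for the gene (of 1 for Slc25a1 and Slc25a40, 2 for Slc25a21 and 3 for Slc25a25). Capitals mark a match on either strand to any of 5 motifs. The CCAAT box is CCAAT itself. The GC box was searched as GGGCGG. The letters of the E-box were CACGTG. For the core of the site of the mitochondrial regulator NRF1 they were GCATGCG, and for the half-site of oestrogen-related receptors AAGGTCA.

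The printed pair with ratios below 0 follows.
Slc25a1, chr16:17928220-17928469, minus strand: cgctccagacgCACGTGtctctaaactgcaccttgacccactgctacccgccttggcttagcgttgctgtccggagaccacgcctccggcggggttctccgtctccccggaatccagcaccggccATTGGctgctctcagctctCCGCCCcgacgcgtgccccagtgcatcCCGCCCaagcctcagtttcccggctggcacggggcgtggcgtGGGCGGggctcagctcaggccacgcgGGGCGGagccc
Slc25a25, chr2:32451471-32451720, minus strand: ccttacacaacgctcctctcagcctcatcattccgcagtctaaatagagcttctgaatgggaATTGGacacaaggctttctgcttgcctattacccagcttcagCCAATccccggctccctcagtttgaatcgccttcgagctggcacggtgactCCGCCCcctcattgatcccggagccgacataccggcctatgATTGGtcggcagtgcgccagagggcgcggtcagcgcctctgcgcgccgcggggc

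The printed pair with ratios above 0 follows.
Slc25a21, chr12:57197473-57197722, minus strand: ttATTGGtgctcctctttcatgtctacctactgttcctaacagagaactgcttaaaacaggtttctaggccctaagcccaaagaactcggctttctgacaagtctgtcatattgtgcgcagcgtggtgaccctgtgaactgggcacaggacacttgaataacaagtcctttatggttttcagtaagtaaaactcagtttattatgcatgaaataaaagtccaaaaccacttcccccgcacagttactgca
Slc25a40, chr5:8422588-8422837, plus strand: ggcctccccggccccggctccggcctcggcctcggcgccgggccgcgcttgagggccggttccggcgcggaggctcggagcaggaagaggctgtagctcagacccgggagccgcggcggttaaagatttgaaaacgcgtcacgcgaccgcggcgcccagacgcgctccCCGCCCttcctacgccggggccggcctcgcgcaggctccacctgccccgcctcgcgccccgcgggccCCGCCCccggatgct

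The citrate carrier window held 4 GC boxes, 1 CCAAT box and 1 E-box, and the Slc25a25 window 3 CCAAT boxes and 1 GC box. The Slc25a40 window held 2 GC boxes. The Slc25a21 window held 1 CCAAT box and no GC box, and 43.2% of its bases were G or C, against 70.0% for Slc25a1, 60.0% for Slc25a25 and 78.0% for Slc25a40. Over all 38 carrier windows, a GC box was found in 73.7%, a CCAAT box in 44.7% and an E-box in 21.1%. In the 15191 windows of all named genes on the arrays the shares were 46.9%, 35.3% and 7.26%, and in all 32851 windows of the table they were 32.7%, 33.8% and 6.02%. The NRF1 core stood in 1 carrier window (2.63%) and the oestrogen-related receptor half-site in none, against 4.17% and 3.38% for named genes. By side, a GC box was in 9 of 10 windows of 5 genes past below 0 and 5 of 7 windows of 5 genes past above 0. A CCAAT box was in 7 of 10 and 2 of 7, and the 7 include every window of Slc25a25 and of Slc25a23. Among the 21 windows of 19 carriers that did not pass, 14 held a GC box and 8 a CCAAT box. Several genes have more than 1 window, and those of Slc25a14 and of Slc25a23 overlap, so these counts are descriptions without a test.

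Genes that import, assist or use what the carriers move were set beside them in 8 lists. Of 95 such genes measured, 6 passed below 0 (6.32%) and 15 above 0 (15.8%), with a median of 0.043, beside 9.19% and 16.0% of named genes. Mpc1, a subunit of the mitochondrial pyruvate carrier, which belongs to another family, had 0.84, 1.18 and 1.60, a mean of 1.21 ± 0.38 (adjusted p = 0.0117). All its arrays lay on the adenoma side, and its mean exceeded that of any Slc25 gene. Among 13 other inner membrane transporters, Sfxn5, a sideroflexin, was the only gene past below 0 (-0.41 ± 0.17, adjusted p = 0.0415) and lost its call without array 1 (adjusted p = 0.0880). Ucp1, Ucp3, Mtch1 and Mtch2, carrier proteins whose symbols the rule does not take, did not pass, with means from -0.36 to 0.093.

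Most enzymes that use citrate, malate or ornithine did not pass. Of 15 citrate and malate enzymes, citrate synthase (Cs) passed below 0 with -0.67, -0.51 and -0.59 (mean -0.59 ± 0.077, adjusted p = 0.0132), like Slc25a1, and Idh2, a matrix enzyme that makes oxoglutarate from isocitrate, passed above 0 (0.86 ± 0.34, adjusted p = 0.0130). Acly, which cleaves exported citrate in the cytosol, did not pass (0.066 ± 0.082) and is named here after its value was seen. Of 9 urea cycle, ornithine and glutamate enzymes, 3 passed above 0 and none below 0: Otc, which makes citrulline from ornithine (1.19 ± 0.33, adjusted p = 0.0117), Oat, which converts ornithine to a precursor of glutamate and proline (0.85 ± 0.38, adjusted p = 0.0148), and the glutamine synthetase gene Glul (1.07 ± 0.31, adjusted p = 0.0117). The other 6 did not pass, among them the glutamate dehydrogenase gene Glud1 (-0.38 ± 0.17, adjusted p = 0.0523), named after its value was seen. Otc, Oat and Glul lay on the side of the ornithine carrier Slc25a15 and kept their calls with receptor centring, which Slc25a15 did not.

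The lists around iron, cofactors, fat oxidation and import held calls on both sides. Haem and iron-sulphur enzymes had 1 of 15 past below 0, Ppox (-0.61 ± 0.11), whose call was lost with the first probe alone (adjusted p = 0.0995), and 2 above 0, Isca1 (0.86 ± 0.29) and Cpox (0.62 ± 0.20). The Cpox call was lost in the same way (adjusted p = 0.984). Folate, glycine and cofactor enzymes had 1 of 9 below 0, Nmnat3 of NAD synthesis (-0.40 ± 0.19), and 3 above 0, the glycine cleavage gene Gcsh (0.75 ± 0.030), Dld (0.52 ± 0.024), a subunit of the glycine cleavage and oxo acid dehydrogenase complexes, and Pnpt1 (0.59 ± 0.15). Pnpt1 encodes a polynucleotide phosphorylase of RNA processing, so that call is of no folate, glycine or cofactor enzyme although the list holds the gene. Nmnat3 lost its call without array 1 (adjusted p = 0.116), without array 2 (adjusted p = 0.0641) and with median centring (adjusted p = 0.0585). Carnitine shuttle and fatty acid oxidation genes had 1 of 16 below 0, Etfb (-0.46 ± 0.23), and 2 above 0, Hadhb (0.49 ± 0.12) and Hadh (0.46 ± 0.084). Hadhb turned with the first probe alone (-0.47, adjusted p = 0.0291), Hadh then lost its call (adjusted p = 0.487), and Etfb lost its call without array 2 (adjusted p = 0.0740).

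Outer membrane channels and the import machinery of carriers held 1 of 14 below 0 and 3 above 0. The gene below 0 was Timm10, a chaperone that guides carriers across the intermembrane space (-0.45 ± 0.17, adjusted p = 0.0327), whose call was lost without array 1 (adjusted p = 0.0740) or array 2 (adjusted p = 0.0537). Above 0 were the channel gene Vdac3 (0.86 ± 0.23), the carrier receptor gene Tomm70a (0.73 ± 0.23) and Timm29 (0.55 ± 0.17), a subunit of the complex that inserts carriers. The Tomm70a call was lost with the first probe alone (adjusted p = 0.0757). Without array 3 no partner gene passed. With receptor centring, 46 of the 95 partner genes passed below 0, and 9 of the 15 above 0 kept that call. The count below 0 was 4 without array 1 and 3 without array 2. The calls above 0 that ended with receptor centring were those of Hadh, Hadhb, Dld, Pnpt1, Cpox and Timm29.

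**Figure D5:**
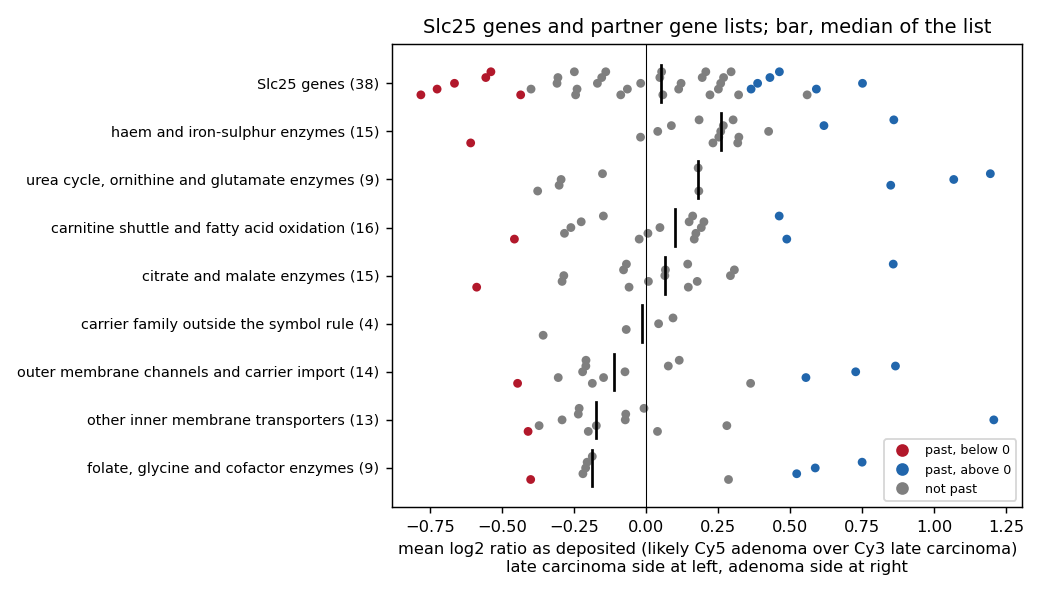
Mean log2 ratio over 3 arrays (x axis) of the 38 Slc25 genes and of 8 lists of partner genes, number measured in brackets, with red for genes past below 0, blue for genes past above 0 and a black bar for the median of each list. List medians run from -0.19 to 0.26, and Mpc1 at 1.21 is the farthest gene from 0.

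Cell type markers, of epithelium as well as of other cells, also passed on these arrays. In 10 lists, 3 of 50 measured markers passed below 0 and 17 above 0, beside 9.19% and 16.0% of named genes. All 6 mammary secretory genes passed above 0, with list medians of 2.26, 2.18 and 2.12 on arrays 1, 2 and 3. The calls of Csn1s1, Csn1s2a, Csn2 and Wap held with receptor centring. Of 7 white fat genes, none passed below 0 and 4 above 0, with list medians of 0.69, 0.37 and 0.40. Receptor centring left 2 of these 4, Fabp4 (mean 3.49 as deposited) and Car3 (1.56). Both calls also held without array 1 or array 2. Adipoq (adjusted p = 0.259) and Lep (adjusted p = 0.0605) lost their calls with that centring, and Adipoq also did without array 1 (adjusted p = 0.0703). The citrate carrier gene Slc25a1 lay on the other side of 0 from the secretory markers. None of 7 brown fat, 8 skeletal muscle and 4 erythroid markers passed below 0. Above 0 there was 1 in each list: Prdm16, Acta1 and Epb42, in that order. The medians of these 3 lists were 0.084, -0.13 and 0.080, and their lowest genes had -0.44, -0.32 and -0.26. The calls of Prdm16, Acta1 and Epb42 ended with receptor centring (adjusted p = 0.0572, 0.176 and 0.0958). Epithelial genes had 1 of 5 below 0 and 1 above 0 (Cdh1), macrophage genes 1 of 3 and 1 (Adgre1), fibroblast genes 1 of 4 and 0, endothelial genes 0 of 3 and 1, and T cell genes 0 of 3 and 1. Receptor centring ended the calls of Cdh1 (adjusted p = 0.132) and Adgre1 (adjusted p = 0.286), and Adgre1 also lost its call without array 1 (adjusted p = 0.0636). Below 0, the calls of Krt19 (-1.16), Itgam (-1.09) and Col1a1 (-0.84) held with receptor centring and without array 1 or array 2. So did those of Kdr (0.69) and Cd3g (0.75) above 0. The other measured genes of their lists did not pass: Pecam1 (-0.30) and Tek (0.042) for endothelium, Cd3e (-0.28) and Cd3d (-0.23) for T cells. The part of these cell types in the carrier values was not tested.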

How the data were processed

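Total RNA of late carcinomas (Cy3) and adenomas (Cy5) was compared on 3 two-channel arrays of 1 dye orientation, per the labels. The deposited table holds log2 ratios (38976 rows; the base and direction are read from the values and labels, not stated); array medians were -0.012, -0.025 and -0.033, and 1 value was missing. How the authors scanned and normalized is not stated in the labels; the number of arrays limits precision, and no intensities were analysed.

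Rows were named through the platform annotation: 22973 had 1 gene symbol, 0 several and 16003 none. All 22973 matched a gene of RefSeq's GRCm38.p6 table, used for names. Probes of a gene were averaged per array, and 31058 genes and unnamed probes were fitted in R 4.3.3 by limma 3.58.1, with an intercept alone in lmFit and then eBayes, giving two-sided p-values with Benjamini-Hochberg adjustment. Every Slc25 gene is named, with each array's value if it passed; partner genes are named where they are among the 4 of a list with the smallest p past the threshold. The rule for members reads symbols alone, but the family, the lists and the alternatives were chosen with earlier results of these data known. Alternatives were median and receptor centring, the first probe, each probe alone, array weights, robust eBayes, named genes alone, an adjusted p of 0.1 and leaving out each array. Motifs were counted in Python 3.11.15, and figures drawn with matplotlib 3.10.9.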

Additional observations from a re-analysis of the deposited data

How the results depend on the processing

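The count of 6 carriers below 0 became 18 with receptor centring and ran from 0 to 6 when arrays were left out in turn. The count of 6 above 0 became 0 with receptor centring and 10 with array weights (array 3 weighted highest), and ran from 0 (without array 3) over 3 (without array 1) to 5. The other settings kept both counts within 1.5 times. The 12 genes became 23 probes with each probe fitted alone. The median of 0.050 was 0.073 with median centring, -0.30 with receptor centring and -0.11 with the first probe, and ran from 0.012 to 0.13 without an array. Signs turned for genes that had not passed. With receptor centring these were Slc25a11 (-0.23), Slc25a14 (-0.30, then past the threshold), Slc25a16 (-0.16), Slc25a20 (-0.056), Slc25a24 (-0.10), Slc25a27 (-0.030), Slc25a3 (-0.24), Slc25a30 (-0.092), Slc25a31 (-0.082), Slc25a32 (-0.30), Slc25a33 (-0.13), Slc25a41 (-0.29) and Slc25a46 (-0.14). With the first probe they were Slc25a11 (-0.29), Slc25a24 (-0.23), Slc25a32 (-0.48, then past the threshold) and Slc25a36 (0.042). Slc25a36 also turned with median centring (0.0038) and Slc25a5 with array weights (0.12). With an array left out, Slc25a28 ran from -0.27 to 0.003, Slc25a32 from -0.11 to 0.17, Slc25a36 from -0.082 to 0.020, Slc25a41 from -0.095 to 0.17 and Slc25a5 from -0.45 to 0.22. Of the 12 calls, 12 held with the first probe, array weights, robust eBayes and named genes alone, 11 with median centring and 6 with receptor centring. Without array 1, 8 held, without array 2, 9, and without array 3, 0. For 10 of the 12 genes the first probe was the only probe, so that setting left their ratios unchanged. For Slc25a40 the first probe was the one with the highest mean (1.02). The causes were not tested.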
